A study of Homo sapiens with 12 samples.

Results

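The response of HPB-ALL, an established human T-cell acute lymphoblastic leukaemia line, to the peptide SAHM1 was read from 6 of the 12 arrays of the series. The 6 arrays were chosen by their titles: 3 cultures with 20 µM SAHM1 and 3 cultures with the same amount of the vehicle DMSO, all harvested after 24 hours in 24-well plates. The other 6 arrays hold KOPT-K1, a second line of the same leukaemia, under the same treatment and vehicle, with 3 cultures each. Total RNA was hybridised to an Affymetrix whole-genome array of 54675 probe sets, of which 41091 carry exactly 1 gene symbol and give 19775 genes. All cells come from 2 cell lines, so no value covers the variation between patients, and the DMSO arrays show no untreated state.

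SAHM1 is a stapled peptide helix modelled on mastermind-like, the co-activator that docks onto cleaved NOTCH and the DNA-binding protein RBPJ. When a NOTCH receptor is cut by gamma-secretase, its intracellular part enters the nucleus, joins RBPJ and mastermind-like, and switches on genes such as HES1, DTX1 and MYC. In T-cell leukaemia activating NOTCH1 mutations, which HPB-ALL carries, keep this complex formed, and the peptide was made to compete for the mastermind-like position. The comparison asks which transcripts differ in HPB-ALL when the peptide is present.

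Each deposited value is a ratio to the mean of the 3 DMSO arrays of the same line. Values below are log2 of that ratio, so that 0 is the DMSO mean, 1 is a doubling and -1 a halving. Differences are SAHM1 minus DMSO ± the standard error that limma gives (n = 3 arrays on each side), and a gene is called when its Benjamini-Hochberg adjusted p over all genes is below 0.05. Levels are lost on this scale, so the presence of T-cell markers in HPB-ALL could not be checked, and a lower ratio cannot tell fewer transcripts per cell from fewer cells holding them.

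The 18S ribosomal RNA control probe sets varied between the DMSO arrays. Their mean lay at 1.05, -1.01 and -1.65 in the DMSO arrays and 1.73, 1.89 and 1.35 in the SAHM1 arrays, a difference of 2.19 (exact two-sided permutation p = 0.1, the smallest that 3 against 3 arrays allow). DMSO replicate 1 stood near the SAHM1 arrays and apart from DMSO replicates 2 and 3. The 18S probe set at the 5′ end spread most, at 1.36, -1.85 and -2.66 in the DMSO arrays and 2.47, 2.71 and 1.91 in the SAHM1 arrays. The 28S control probe sets moved less, at 0.17, 0.00 and -0.26 in the DMSO arrays and 0.20, 0.34 and 0.29 in the SAHM1 arrays. The hybridization spikes set DMSO replicate 2 apart, at -0.44, 0.60 and -0.48 in the DMSO arrays and -0.31, -0.47 and -0.71 in the SAHM1 arrays. The ACTB 5′ minus 3′ difference, a readout of transcript integrity, was 0.05, -0.01 and -0.03 in the DMSO arrays and -0.23, -0.41 and -0.09 in the SAHM1 arrays (exact p = 0.1), lower in every SAHM1 array. The same readout for GAPDH was 0.07, -0.06 and -0.01 in the DMSO arrays and -0.04, -0.03 and 0.04 in the SAHM1 arrays (exact permutation p = 0.7). In KOPT-K1 the 18S controls spanned only -0.39 to 0.13 over 6 arrays. Main results are therefore also given against DMSO replicate 1 alone or with 18S as a covariate. Within HPB-ALL that covariate overlaps strongly with treatment, and it raised the median standard error from 0.0848 to 0.139. The part of the 18S signal in any result was not tested beyond these values.

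**Figure D1:**
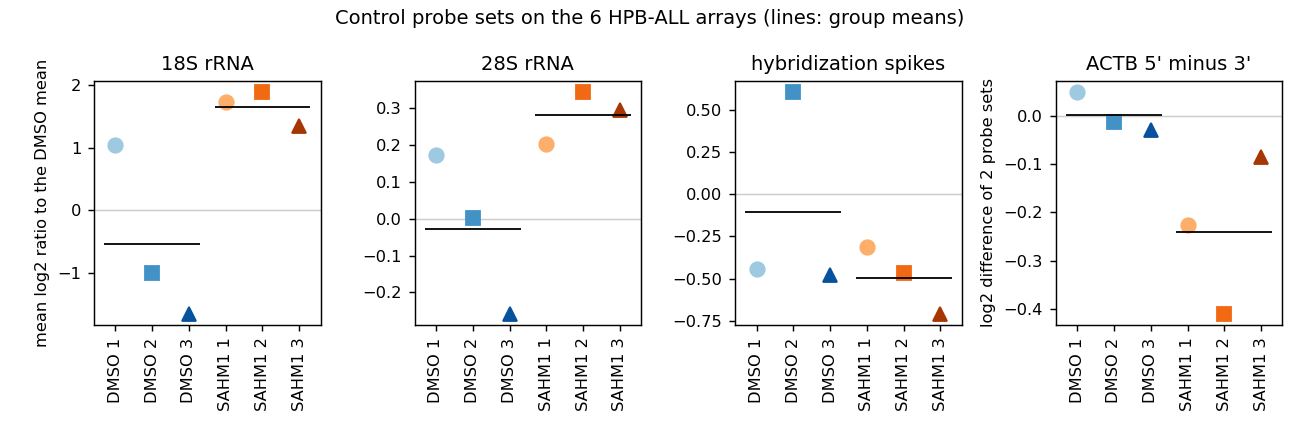
Control probe sets by array in HPB-ALL, as log2 ratio to the mean of the DMSO arrays (vertical axis), with 1 point per array and a line at each group mean. The last panel is the ACTB 5′ probe set minus the 3′ probe set. The 18S mean of DMSO replicate 1, at 1.05, lies closer to the SAHM1 arrays (1.35 to 1.89) than to DMSO replicates 2 and 3 (-1.01 and -1.65).

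With SAHM1, 1846 of 19775 genes changed in HPB-ALL (9.34%). Of these, 980 rose (4.96%) and 866 fell (4.38%). A fit to the 6 HPB-ALL arrays alone, without the spread of KOPT-K1, called 1484 genes. Most changes were small: the median was 0.37 among genes called higher and -0.34 among genes called lower, while the median of all genes was -0.02. Only 18 genes rose and 8 fell by at least 1. Among all genes, the SAHM1 arrays lay wholly above the DMSO arrays in 2650 (13.4%) and wholly below in 3114 (15.7%), and 1839 of the 1846 called genes had no overlap between the groups. Single probe sets gave 1501 higher (3.65%) and 1100 lower (2.68%) of 41091. The count of called genes depended on single arrays: it was 915 without DMSO replicate 2, 996 without DMSO replicate 3, 1124 without SAHM1 replicate 1, 913 without SAHM1 replicate 2 and 1117 without SAHM1 replicate 3.

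Against DMSO replicate 1 alone, 68 genes were called higher (0.344%) and 68 lower (0.344%), and 134 of these 136 were called in the full comparison too. The median standard error was 0.116 with that 1 control array. With 18S as a covariate, 31 were called higher (0.157%) and 21 lower (0.106%). Sizes shrank more among the rises. The median rise that was left against DMSO replicate 1 was 79.1%, with 127 genes under 50%, and the median fall that was left was 90.2%, with 18 genes under 50%. DMSO replicate 1 was the highest DMSO array in 68.3% of the genes called higher, against 29.2% of all genes. It was the lowest DMSO array in 53.8% of the genes called lower, against 38.2% of all genes. Protein-coding genes were called in both directions, 5.32% higher and 5.10% lower, whereas among 2658 long non-coding RNA genes 2.71% were higher and 0.527% lower.

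**Figure D2:**
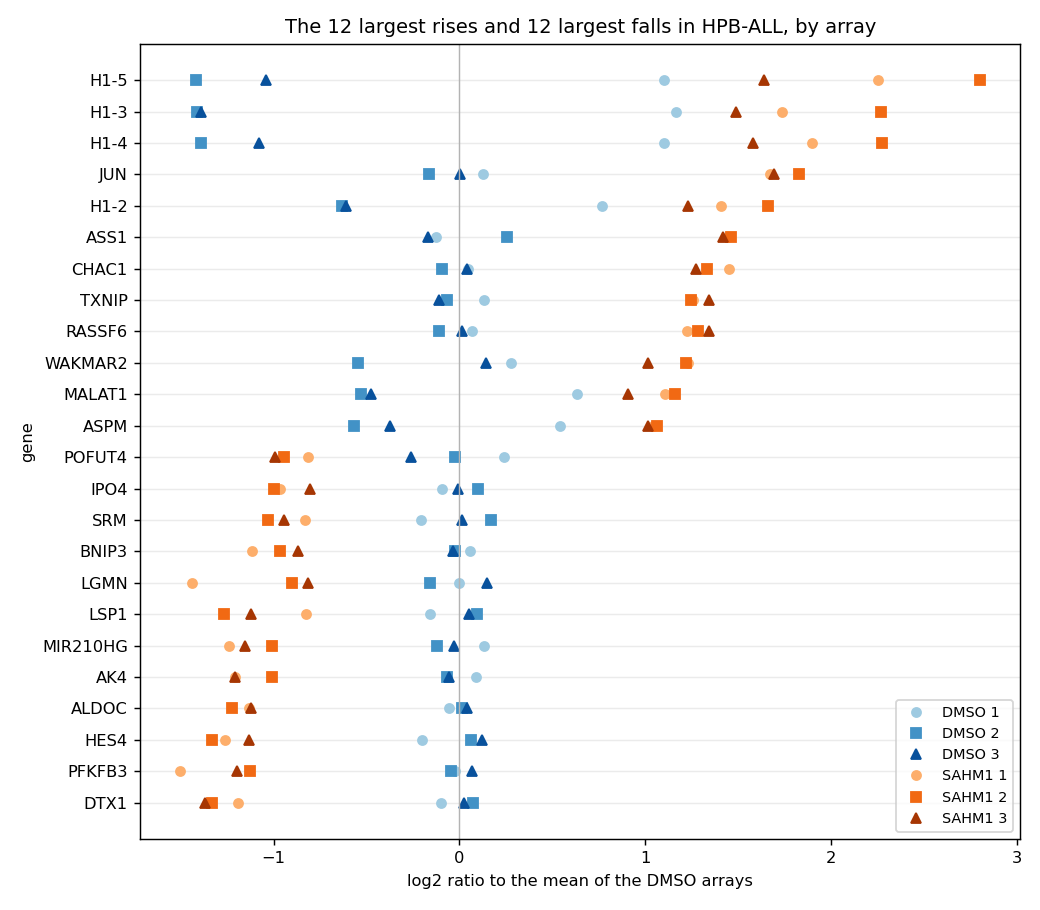
The 12 genes with the largest rises and the 12 with the largest falls in HPB-ALL, each with its 6 arrays as log2 ratio to the mean of the DMSO arrays (horizontal axis). DMSO replicate 1 lies far to the right of the other DMSO arrays for H1-5, H1-3, H1-4, H1-2, MALAT1 and ASPM, and close to them for JUN, CHAC1, TXNIP, DTX1 and PFKFB3.

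Several NOTCH target genes fell after SAHM1. Of 23 measured genes of a NOTCH target list, 8 fell (34.8% against 4.38% of all genes) and 0 rose, and the list median was -0.17. The number called lower was 4 against DMSO replicate 1 alone and 3 with the 18S covariate. DTX1, a ubiquitin ligase that NOTCH switches on in T-lineage cells, stood at -0.10, 0.07 and 0.02 in the DMSO arrays and -1.19, -1.33 and -1.37 in the SAHM1 arrays. All 3 SAHM1 arrays were more than 1 below every DMSO array, a difference of -1.30 ± 0.09 (adjusted p = 1.43e-05), the largest fall of any called gene without overlap. HES4, a repressor of the HES family, stood at -0.20, 0.06 and 0.12 in the DMSO arrays and -1.26, -1.33 and -1.13 in the SAHM1 arrays, a difference of -1.24 ± 0.10 (adjusted p = 2.07e-05). HES4 was read from 1 probe set, of the _x_at type that an alternative fit left out. HES1, its relative and the classic NOTCH target, moved less: its values were 0.01, -0.03 and 0.01 in the DMSO arrays and -0.60, -0.59 and -0.59 in the SAHM1 arrays. That difference was -0.59 ± 0.05 (adjusted p = 6.27e-05), carried by 2 of 3 probe sets. MYC, the growth-promoting transcription factor that NOTCH1 drives in this leukaemia, stood at -0.08, 0.12 and -0.05 in the DMSO arrays and -0.53, -0.71 and -0.70 in the SAHM1 arrays, a difference of -0.65 ± 0.07 (adjusted p = 0.000218). Against DMSO replicate 1 alone the differences were -1.20 for DTX1, -1.04 for HES4, -0.60 for HES1 and -0.57 for MYC, so they kept most of their size against the DMSO array whose 18S level was nearest. With the 18S covariate DTX1, HES4 and HES1 kept their calls, and MYC lost its call.

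Other genes of the pathway showed little. HEY1, a further hairy-family repressor, differed by -0.28 ± 0.10 (adjusted p = 0.118), and NRARP, a feedback inhibitor of the complex, by 0.08 ± 0.11 (adjusted p = 0.747). The pre-T-cell receptor chain PTCRA differed by -0.08 ± 0.08 and the interleukin-7 receptor IL7R by 0.06 ± 0.13, neither of them called. NOTCH3 was called at -0.34 ± 0.08, but its adjusted p was 0.0866 without DMSO replicate 2, 0.0627 without DMSO replicate 3, 0.053 without SAHM1 replicate 2 and 0.0804 without SAHM1 replicate 3. NOTCH3 is a receptor but stood on the target list. Among the 23 other receptors and partners of the complex that were measured, limma called 0, and the median was 0.04. NOTCH1 itself differed by -0.16 ± 0.16, RBPJ by -0.06 ± 0.07 and MAML1, the protein the peptide copies, by 0.01 ± 0.06. List means by array were 0.01, -0.02 and -0.01 in the DMSO arrays and -0.25, -0.29 and -0.29 in the SAHM1 arrays for the targets. For the receptors and partners they were -0.02, 0.00 and 0.00 in the DMSO arrays and 0.03, -0.01 and 0.00 in the SAHM1 arrays.

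The start-site windows of HES4 and HES1 are shown because these called target genes hold the letters GTGGGAA, the core that RBPJ binds. The sequences are from RefSeq (GRCh38.p14) and run from 250 bases before to 50 after the start, 5′ to 3′ on the gene's strand, with the core in capitals. The HES4 window is chr1:1000048-1000347 on the minus strand, with the core at -77 to -71. The HES1 window is chr3:194135898-194136197 on the plus strand, with it at -85 to -79. On either strand the core occurred in 6.25% of 35116 windows of that length and in 6 of 23 windows of the target list. DTX1 was not matched in the table.
HES4: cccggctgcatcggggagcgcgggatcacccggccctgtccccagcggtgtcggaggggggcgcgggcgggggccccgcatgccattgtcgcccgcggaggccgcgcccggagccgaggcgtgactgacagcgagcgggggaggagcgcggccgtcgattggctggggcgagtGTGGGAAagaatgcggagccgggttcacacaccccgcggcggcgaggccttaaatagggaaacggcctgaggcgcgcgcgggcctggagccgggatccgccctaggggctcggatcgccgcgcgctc
HES1: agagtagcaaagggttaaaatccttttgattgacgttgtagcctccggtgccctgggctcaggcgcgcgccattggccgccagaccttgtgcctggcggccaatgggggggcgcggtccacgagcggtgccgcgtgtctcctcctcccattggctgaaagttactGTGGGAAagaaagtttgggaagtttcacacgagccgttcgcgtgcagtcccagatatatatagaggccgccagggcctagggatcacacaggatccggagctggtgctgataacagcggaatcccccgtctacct

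JUN, the AP-1 subunit, had the largest rise outside the linker histones. It stood at 0.13, -0.16 and 0.00 in the DMSO arrays and 1.67, 1.83 and 1.69 in the SAHM1 arrays, so the groups lay far apart. The difference was 1.74 ± 0.10 (adjusted p = 3.48e-06), a 3.35-fold rise, and 1.61 against DMSO replicate 1. Its probe sets ranged from 0.74 to 2.38, and 3 of 4 were called. Of 19 immediate early genes 3 rose (15.8% against 4.96% of all genes). Besides JUN these were EGR1, a zinc-finger factor induced by ERK signalling, at 0.69 ± 0.07 (adjusted p = 0.000141), and ATF3, a stress-induced partner of JUN, at 0.64 ± 0.06 (adjusted p = 7.68e-05). IER2, another gene of the list, fell at -0.31 ± 0.06 (adjusted p = 0.00606). The phosphatases DUSP10 and DUSP6, which switch off MAP kinases, rose by 0.50 ± 0.08 (adjusted p = 0.00277) and 0.30 ± 0.06 (adjusted p = 0.00672). They were the 2 rises among 15 ERK feedback genes (13.3% against 4.96% of all genes). In that list 11 genes lay below 0, and the median was -0.11. Another such phosphatase, DUSP7, was the 1 fall (6.67% against 4.38%), at -0.27 ± 0.07 (adjusted p = 0.0283). Its call was lost in 5 of the fits with 1 array left out. With the 18S covariate JUN and ATF3 kept their calls, and EGR1, IER2, DUSP10, DUSP6 and DUSP7 lost theirs.

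Part of the genes of the amino acid response rose. ATF4 is a transcription factor made when amino acids or protein folding fall short, and it switches on transporters, synthesis enzymes and stress regulators. Of 29 measured genes of the ATF4 list 16 rose (55.2% against 4.96% of all genes) and 1 fell, with a median of 0.27 and of 0.26 against DMSO replicate 1. The count of rises was between 12 and 14 members when 1 array was left out. Members called higher numbered 9 against DMSO replicate 1 alone and 6 with the 18S covariate. CHAC1, which degrades glutathione, stood at 0.05, -0.09 and 0.04 in the DMSO arrays and 1.45, 1.33 and 1.28 in the SAHM1 arrays, a difference of 1.36 ± 0.13 (adjusted p = 9.16e-05). SLC7A11, the cystine importer, rose by 0.85 ± 0.09 (adjusted p = 0.000144), and TRIB3, a pseudokinase that feeds back on ATF4, by 0.84 ± 0.08 (adjusted p = 0.000124). SESN2, a sestrin that restrains mTORC1, rose by 0.88 ± 0.11 (adjusted p = 0.000489). The lipoprotein receptor VLDLR rose by 1.11 ± 0.13 (adjusted p = 0.00045). Outside the list, PCK2, the mitochondrial phosphoenolpyruvate carboxykinase, rose by 0.86 ± 0.09 (adjusted p = 0.000154). ASS1, which makes argininosuccinate for arginine synthesis and was not listed either, stood at -0.12, 0.26 and -0.17 in the DMSO arrays and 1.44, 1.46 and 1.42 in the SAHM1 arrays, a difference of 1.45 ± 0.12 (adjusted p = 5e-05). The listed DDIT4, another mTORC1 inhibitor, went the other way and fell, at -0.79 ± 0.09 (adjusted p = 0.000254). With the 18S covariate CHAC1, TRIB3, VLDLR, PCK2 and ASS1 kept their calls, and SLC7A11, SESN2 and DDIT4 lost theirs.

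The CHAC1 window is shown because CHAC1 had the largest rise of the ATF4 list and holds TGATGNA, a core of the element bound by ATF4 with C/EBP factors. It is chr15:40953221-40953520 on the plus strand, and the capitals mark the core at -208 to -202, read on the minus strand. This core occurred in 9.99% of all windows and in 8 of 38 windows of the list. The SESN2 window held no match.
CHAC1: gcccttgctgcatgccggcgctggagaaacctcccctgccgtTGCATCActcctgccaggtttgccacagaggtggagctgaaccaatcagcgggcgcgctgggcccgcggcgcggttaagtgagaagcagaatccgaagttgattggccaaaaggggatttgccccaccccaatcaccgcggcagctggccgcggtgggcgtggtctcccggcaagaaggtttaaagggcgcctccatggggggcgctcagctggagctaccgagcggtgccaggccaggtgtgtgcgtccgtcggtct

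Aminoacyl-tRNA synthetases, which charge tRNAs and in part follow ATF4, split: of 17 measured, 5 rose (29.4%) and 4 fell (23.5%). Of all genes 4.96% rose and 4.38% fell. CARS1 rose by 0.52 ± 0.06 (adjusted p = 0.000461) and TARS1 by 0.36 ± 0.07 (adjusted p = 0.00772), while VARS1 fell, at -0.86 ± 0.12 (adjusted p = 0.001), and so did FARSA, at -0.35 ± 0.06 (adjusted p = 0.00452). The endoplasmic reticulum stress list split too, with 3 of 19 higher (15.8%) and 4 lower (21.1%). EDEM1, which hands misfolded glycoproteins to degradation, rose by 0.99 ± 0.06 (adjusted p = 5.8e-06). The folding factors SDF2L1 and MANF fell, at -0.64 ± 0.09 (adjusted p = 0.00105) and -0.28 ± 0.05 (adjusted p = 0.0072). With 1 array left out, the synthetase counts were between 3 and 4 higher and between 2 and 4 lower, and those of the endoplasmic reticulum list between 1 and 3 higher and between 2 and 4 lower. Against DMSO replicate 1 alone the synthetase list gave 0 calls and the endoplasmic reticulum list 1 rise, as they did with the 18S covariate.

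Most glycolysis genes fell in the full comparison. Of 24 measured genes for glucose uptake and glycolysis 18 fell (75% against 4.38% of all genes) and 0 rose. The list median was -0.42, and against DMSO replicate 1 it was -0.40. With DMSO replicate 1 as the only control 7 members were called lower, and with the 18S covariate 3. List means by array were -0.01, -0.01 and 0.00 in the DMSO arrays and -0.45, -0.45 and -0.39 in the SAHM1 arrays, without overlap. The count was between 15 and 17 members when 1 array was left out. PFKFB3, which makes the activator of phosphofructokinase, stood at -0.02, -0.05 and 0.07 in the DMSO arrays and -1.50, -1.13 and -1.20 in the SAHM1 arrays, a difference of -1.28 ± 0.11 (adjusted p = 5.94e-05). ALDOC, an aldolase, fell at -1.16 ± 0.12 (adjusted p = 0.000181), PGK1, phosphoglycerate kinase, at -0.59 ± 0.06 (adjusted p = 0.000153), and LDHA, lactate dehydrogenase, at -0.46 ± 0.05 (adjusted p = 0.000315). HK2, the inducible hexokinase, fell at -0.65 ± 0.08 (adjusted p = 0.00052).

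Several genes known for their induction by hypoxia fell with them. Of 23 listed outside glycolysis 9 fell (39.1% against 4.38% of all genes) and 1 rose (4.35% against 4.96%), with a median of -0.18. Of the list, 4 were called lower against DMSO replicate 1 alone and 2 with the 18S covariate. The long non-coding RNA MIR210HG, host of miR-210, stood at 0.13, -0.12 and -0.03 in the DMSO arrays and -1.24, -1.01 and -1.15 in the SAHM1 arrays, a difference of -1.13 ± 0.12 (adjusted p = 0.000181) that 1 of 2 probe sets carried. The mitophagy receptor BNIP3 stood at 0.05, -0.02 and -0.03 in the DMSO arrays and -1.11, -0.96 and -0.87 in the SAHM1 arrays, a difference of -0.98 ± 0.07 (adjusted p = 1.1e-05). Outside the list, AK4, a mitochondrial adenylate kinase, fell at -1.13 ± 0.08 (adjusted p = 1.43e-05), though its probe sets ranged from -2.35 to -0.35 and 2 of 4 were called. POFUT4, a protein O-fucosyltransferase, was not listed either and fell at -0.90 ± 0.11 (adjusted p = 0.000364) and by more against DMSO replicate 1, at -1.16. Of the glucose-sensing arrestins, TXNIP, which restrains glucose uptake, stood at 0.13, -0.07 and -0.11 in the DMSO arrays and 1.26, 1.24 and 1.34 in the SAHM1 arrays, a difference of 1.30 ± 0.07 (adjusted p = 3.24e-06) with 3 of 3 probe sets called. Its relative ARRDC4 rose by 0.99 ± 0.17 (adjusted p = 0.00316). With the 18S covariate TXNIP kept its call and ARRDC4 lost it, at an adjusted p of 0.137.

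PFKFB3 has 2 windows in the table, and the one at chr10:6202682-6202981 on the plus strand holds ACGTG, the core that hypoxia-inducible factors bind. It is shown as the window of the largest fall among glycolysis genes. The match at -108 to -104 is read on the minus strand, inside a single CACGTG. The core is read on the plus strand too, within the same capitals, and overlaps the E-box. ACGTG on either strand occurred in 21.4% of all windows and in 19 of 49 windows of the list. The other PFKFB3 window held no match.
PFKFB3: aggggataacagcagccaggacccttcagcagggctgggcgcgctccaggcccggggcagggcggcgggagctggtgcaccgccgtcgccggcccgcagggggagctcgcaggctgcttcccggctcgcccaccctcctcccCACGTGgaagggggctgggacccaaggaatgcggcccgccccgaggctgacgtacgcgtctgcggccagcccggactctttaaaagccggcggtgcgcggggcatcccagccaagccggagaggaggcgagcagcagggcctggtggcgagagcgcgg

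Many biosynthetic genes that MYC is known to drive fell. Of 25 measured ribosome biogenesis genes 15 fell (60% against 4.38% of all genes) and 0 rose, with a median of -0.27, both in full and against DMSO replicate 1. The count was between 8 and 12 members when 1 array was left out, with 8 without DMSO replicate 3. The number called lower was 3 against DMSO replicate 1 alone and 0 with the 18S covariate. List means were 0.01, -0.02 and 0.00 in the DMSO arrays and -0.27, -0.31 and -0.29 in the SAHM1 arrays. SRM, which makes spermidine, stood on this list and on the polyamine list, and is not a ribosome assembly factor. Its values were -0.20, 0.17 and 0.01 in the DMSO arrays and -0.83, -1.03 and -0.94 in the SAHM1 arrays, a difference of -0.93 ± 0.09 (adjusted p = 0.000124). The nucleolar assembly factors MRTO4, RRS1 and NOLC1 fell at -0.66 ± 0.08 (adjusted p = 0.000521), -0.53 ± 0.07 (adjusted p = 0.000613) and -0.48 ± 0.06 (adjusted p = 0.000706). Outside the list IPO4, an importin that carries histones and ribosomal proteins into the nucleus, fell at -0.92 ± 0.10 (adjusted p = 0.000163). Of 18 purine and pyrimidine synthesis genes 9 fell (50% against 4.38% of all genes) and 0 rose, PAICS at -0.54 ± 0.07 (adjusted p = 0.000614) and NME1 at -0.52 ± 0.05 (adjusted p = 0.000181) among them. Members called lower numbered 2 against DMSO replicate 1 alone and 0 with the 18S covariate. ODC1, the entry enzyme of polyamine synthesis, fell at -0.27 ± 0.06 (adjusted p = 0.00983), and AZIN1, which protects ODC1 from degradation, rose by 0.45 ± 0.07 (adjusted p = 0.00168). With the 18S covariate IPO4, ODC1 and AZIN1 were not called.

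The SRM window, chr1:11059969-11060268 on the minus strand, is shown as that of the largest fall of the ribosome biogenesis list, on which this polyamine enzyme was placed. It holds CACGTG, the E-box that MYC and MAX bind, once, at -199 to -194, where the palindrome reads the same on both strands. On either strand CACGTG occurred in 7.26% of all windows and in 12 of 31 windows of the list.
SRM: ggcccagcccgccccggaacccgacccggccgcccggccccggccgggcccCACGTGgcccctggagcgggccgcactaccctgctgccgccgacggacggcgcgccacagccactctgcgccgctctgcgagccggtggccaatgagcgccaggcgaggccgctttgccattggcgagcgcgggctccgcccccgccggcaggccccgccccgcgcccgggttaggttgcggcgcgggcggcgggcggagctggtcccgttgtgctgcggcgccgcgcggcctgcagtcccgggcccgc

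Genes of the mitochondrial ribosome, the chaperones, the proteasome and oxidative stress defence fell in part. In that order, the lists had 46.2%, 45%, 33.3% and 38.9% of their genes called lower, against 4.38% of all genes. Against DMSO replicate 1 alone the falls called in these lists, given below as 12, 9, 8 and 7, numbered 0, 2, 0 and 1, and with the 18S covariate 0, 1, 0 and 0. Of 26 mitochondrial ribosomal protein genes 12 fell (46.2%) and 0 rose, MRPL24 at -0.61 ± 0.09 (adjusted p = 0.00131) and MRPS7 at -0.47 ± 0.06 (adjusted p = 0.000577). The count was between 6 and 10 members when 1 array was left out, with 6 without DMSO replicate 3 or SAHM1 replicate 2. Among 20 cytosolic ribosomal protein genes limma called 0, with a median of -0.03 and values from -0.10 to 0.09. Of 20 genes of a chaperone list 9 fell, including HSP90AB1 at -0.67 ± 0.07 (adjusted p = 0.000125), its co-chaperone STIP1 at -0.44 ± 0.06 (adjusted p = 0.000577) and the mitochondrial co-chaperonin HSPE1 at -0.42 ± 0.06 (adjusted p = 0.000819). Proteasome genes fell in 8 of 24, among them the catalytic subunit PSMB5 at -0.45 ± 0.06 (adjusted p = 0.00118), and the count was between 5 and 7 members when 1 array was left out, with 5 without SAHM1 replicate 1. Of 18 genes of oxidative stress defence 7 fell, including the peroxiredoxin PRDX1 at -0.43 ± 0.05 (adjusted p = 0.000564) and the peroxidase GPX1 at -0.36 ± 0.06 (adjusted p = 0.00303). That count was between 2 and 5 members when 1 array was left out, with 2 without DMSO replicate 2 or DMSO replicate 3, 3 without SAHM1 replicate 1 or SAHM1 replicate 2 and 4 without SAHM1 replicate 3.

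Mitotic genes rose, and most replication genes were not called. Of 34 genes of a G2/M and mitosis list 26 rose (76.5% against 4.96% of all genes) and 0 fell. The list median was 0.38, and against DMSO replicate 1 it was 0.36. The kinesin CENPE stood on this list and on the kinesin list below, so their counts overlap. With DMSO replicate 1 as the only control 5 members were called higher, and with the 18S covariate 2. The count was between 20 and 25 members when 1 array was left out. List means by array were 0.04, -0.05 and -0.02 in the DMSO arrays and 0.38, 0.41 and 0.42 in the SAHM1 arrays. HMMR, a spindle-assembly protein, stood at 0.04, -0.06 and 0.02 in the DMSO arrays and 0.73, 0.82 and 0.80 in the SAHM1 arrays, a difference of 0.79 ± 0.06 (adjusted p = 1.43e-05). NEK2, a centrosome kinase, rose by 0.66 ± 0.06 (adjusted p = 0.000124) and CENPA, the centromeric histone, by 0.62 ± 0.06 (adjusted p = 0.000124). Of 13 mitotic kinesins, the motors of the spindle, 8 rose (61.5%), including CENPE at 0.69 ± 0.08 (adjusted p = 0.000265), KIF20A at 0.48 ± 0.05 (adjusted p = 0.000239) and KIF11 at 0.45 ± 0.06 (adjusted p = 0.000707). Of the list, 5 were called higher against DMSO replicate 1 alone and 1 with the 18S covariate. The letters TTTGAA, a core of the cell cycle homology region, occurred in 21 of 39 windows of the G2/M list and in 15.2% of all windows. The window of CCNB1, the mitotic cyclin chosen for this motif, held no match.

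Of 32 genes of G1/S and DNA replication 1 rose (3.1% against 4.96% of all genes) and 7 fell (21.9% against 4.38%), with a median of -0.07. The falls were between 1 and 6 members when 1 array was left out, with 1 without SAHM1 replicate 2, 2 without DMSO replicate 3 or SAHM1 replicate 1 and 4 without DMSO replicate 2. The number called lower was 0 against DMSO replicate 1 alone and 0 with the 18S covariate. UNG, which removes uracil from DNA, fell at -0.40 ± 0.06 (adjusted p = 0.00223). Of the regulators of G1, CDK4 fell at -0.34 ± 0.06 (adjusted p = 0.00354) and CCND2, a D cyclin, at -0.33 ± 0.05 (adjusted p = 0.00237). The inhibitor CDKN1B rose by 0.31 ± 0.06 (adjusted p = 0.00475), and the phosphatase CDKN3 by 0.42 ± 0.06 (adjusted p = 0.000918). With the 18S covariate limma's adjusted p was 0.38 for CDK4, 0.132 for CCND2 and 0.389 for CDKN1B, and only CDKN3 kept its call. CCND3, the D cyclin known as a NOTCH target in T-cell leukaemia, differed by 0.16 ± 0.07 (adjusted p = 0.236).

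**Figure D3:**
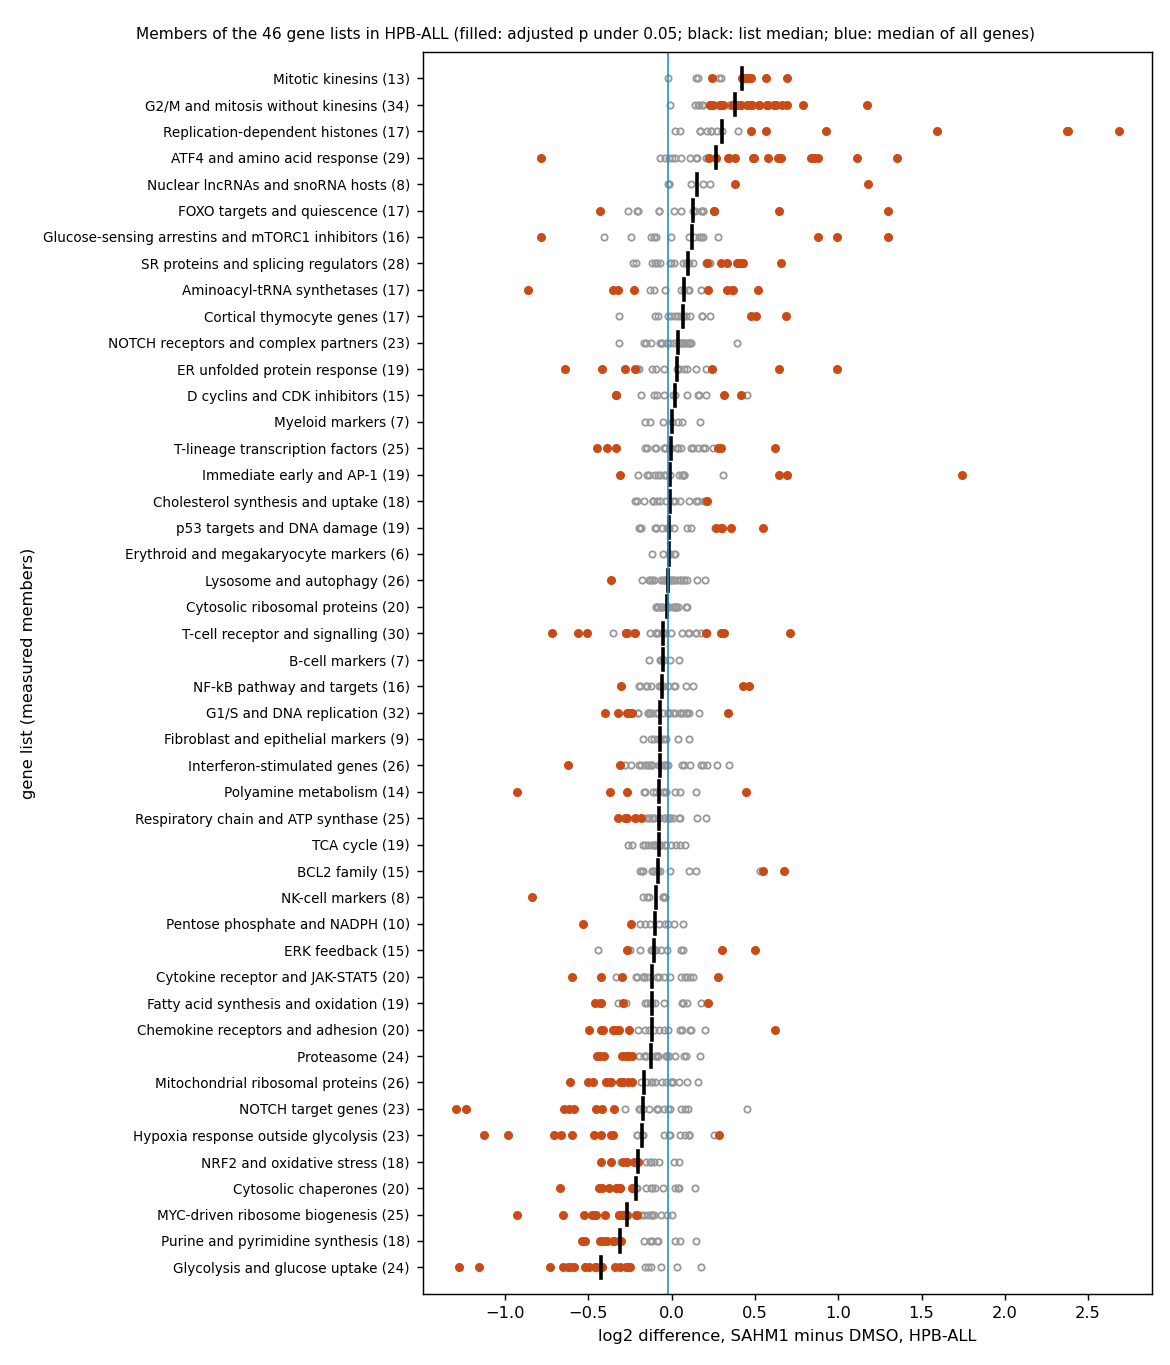
Log2 difference (SAHM1 minus DMSO, horizontal axis) of every measured member of the 46 gene lists in HPB-ALL, 1 point per gene, with called genes filled, list medians in black and the median of all genes as a blue line. The mitotic lists have the highest medians, 0.42 and 0.38, and the glycolysis list the lowest, -0.42.

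The 3 largest rises of all were those of the linker histones H1-5, H1-3 and H1-4, and with H1-2 they moved with the 18S controls. Linker histones clip DNA onto nucleosomes, and their replication-dependent transcripts lack a poly-A tail. H1-5 stood at 1.10, -1.42 and -1.04 in the DMSO arrays and 2.25, 2.80 and 1.64 in the SAHM1 arrays. H1-4 stood at 1.10, -1.39 and -1.08 in the DMSO arrays and 1.90, 2.28 and 1.58 in the SAHM1 arrays. The values of H1-2 were 0.76, -0.63 and -0.61 in the DMSO arrays and 1.41, 1.66 and 1.23 in the SAHM1 arrays. In each, DMSO replicate 1 lay well above the other DMSO arrays and below the SAHM1 arrays. The differences were 2.69 ± 0.50 (adjusted p = 0.00562), 2.37 ± 0.47 (adjusted p = 0.00822) and 1.59 ± 0.30 (adjusted p = 0.00605). They were 1.13, 0.82 and 0.67 against DMSO replicate 1, and 0.59, 0.34 and 0.33 with the 18S covariate. H1-3, at 2.38 ± 0.52, had an adjusted p of 0.0667 without DMSO replicate 2, 0.0591 without DMSO replicate 3 and 0.0617 without SAHM1 replicate 2. Of 17 replication-dependent histone genes 7 rose (41.2% against 4.96% of all genes), and the count was between 5 and 8 members when 1 array was left out. Members called higher numbered 1 against DMSO replicate 1 alone and 0 with the 18S covariate. The core histone H2AC6 held more of its rise, with 0.92 ± 0.12 (adjusted p = 0.000706) in full and 0.66 against DMSO replicate 1, and H2BC5 was at 0.48 ± 0.06 (adjusted p = 0.000685) and 0.41.

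MALAT1, a long RNA retained in the nucleus, followed the same order of arrays. It stood at 0.63, -0.53 and -0.48 in the DMSO arrays and 1.10, 1.16 and 0.91 in the SAHM1 arrays, a difference of 1.18 ± 0.24 (adjusted p = 0.00827) with 10 of 12 probe sets called, which became 0.43 against DMSO replicate 1. ASPM, a spindle-pole protein on the mitotic list, differed by 1.17 ± 0.21 (adjusted p = 0.00414) and by 0.50 against DMSO replicate 1, so it lost more of its size than HMMR did, at 0.75. Of 28 SR proteins and splicing regulators 9 rose (32.1% against 4.96% of all genes), with the helicase DDX17 at 0.65 ± 0.13 (adjusted p = 0.00908) and at 0.34 against DMSO replicate 1. That count was between 3 and 11 members when 1 array was left out, with 3 without DMSO replicate 2 or DMSO replicate 3 or SAHM1 replicate 3 and 4 without SAHM1 replicate 1 or SAHM1 replicate 2. With DMSO replicate 1 as the only control 0 members were called higher, and with the 18S covariate 0. The list median was 0.10, and 0.03 against DMSO replicate 1.

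**Figure D4:**
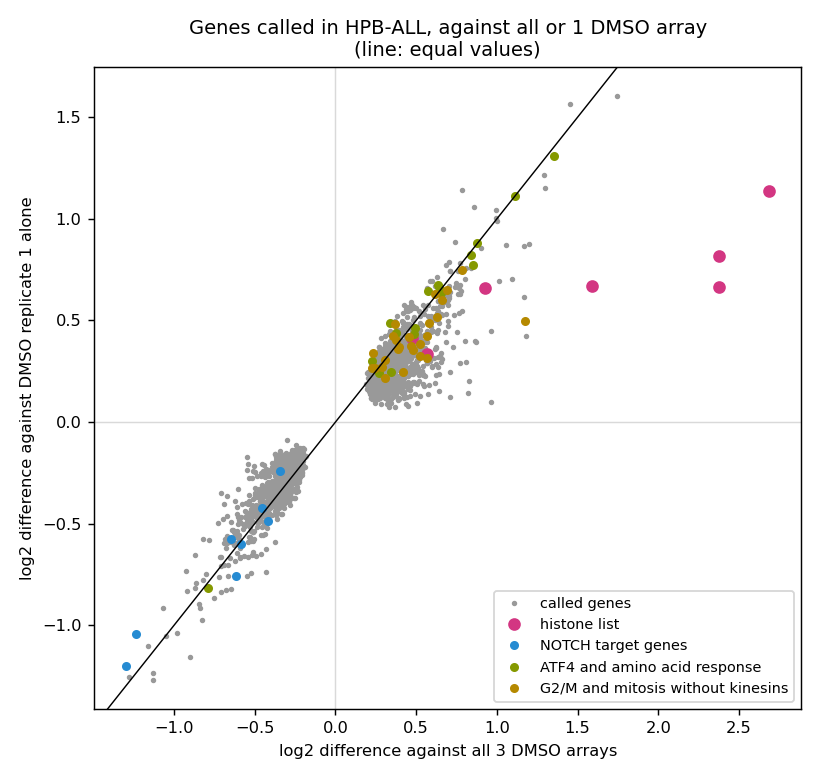
Log2 difference of the 1846 called genes against all 3 DMSO arrays (horizontal axis) and against DMSO replicate 1 alone (vertical axis), with 1 point per gene and a line of equal values. The linker histones lie far below the line, with H1-5 at 2.69 and 1.13, while most NOTCH target and ATF4 genes lie near it.

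Genes of T-cell identity and signalling changed singly. The recombinase subunit RAG2 rose by 0.69 ± 0.11 (adjusted p = 0.00238), the terminal transferase DNTT by 0.50 ± 0.08 (adjusted p = 0.00175) and ARPP21, a cortical thymocyte gene, by 0.48 ± 0.07 (adjusted p = 0.00101). They were the 3 called among 17 cortical thymocyte genes (17.6% higher against 4.96% of all genes). Of the list, 0 were called higher against DMSO replicate 1 alone and 0 with the 18S covariate. Of the lineage regulators, ID2 rose by 0.62 ± 0.10 (adjusted p = 0.00184) and its relative ID3 fell, at -0.45 ± 0.08 (adjusted p = 0.0029). STAT5A, the signal carrier of the interleukin-7 receptor, fell at -0.60 ± 0.07 (adjusted p = 0.000244). Of 30 T-cell receptor and signalling genes 4 rose (13.3% against 4.96% of all genes) and 6 fell (20% against 4.38%). The falls included the inhibitory receptor CD300A at -0.72 ± 0.07 (adjusted p = 0.000108) and ELMO1, which activates the GTPase Rac, at -0.56 ± 0.10 (adjusted p = 0.00487). The rises were between 1 and 4 members when 1 array was left out, with 1 without DMSO replicate 2 or SAHM1 replicate 1 or SAHM1 replicate 2 or SAHM1 replicate 3 and 2 without DMSO replicate 3. The falls were between 2 and 6 members when 1 array was left out, with 2 without DMSO replicate 2 or DMSO replicate 3 or SAHM1 replicate 2 and 3 without DMSO replicate 1 or SAHM1 replicate 1. Against DMSO replicate 1 alone 0 rises and 1 fall were called, and likewise with the 18S covariate. CCR9, the receptor that guides thymocytes and gut T cells, fell at -0.43 ± 0.07 (adjusted p = 0.00277), and ITGA4, an integrin chain, at -0.34 ± 0.06 (adjusted p = 0.00337). LSP1, a leukocyte actin-binding protein, fell at -1.07 ± 0.10 (adjusted p = 0.000124) and LGMN, a lysosomal protease, at -1.05 ± 0.17 (adjusted p = 0.00253). With the 18S covariate ID2, ID3, STAT5A, CCR9, ITGA4, LSP1 and LGMN lost their calls.

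Of 15 BCL2 family genes 2 rose (13.3% against 4.96% of all genes), 10 lay below 0, and the median was -0.08. With the 18S covariate 0 members were called higher. PMAIP1, a BH3-only activator of apoptosis, rose by 0.55 ± 0.06 (adjusted p = 0.000378) and HRK, another, by 0.67 ± 0.08 (adjusted p = 0.000564). TNFAIP3, the inhibitor of NF-kB signalling, rose by 0.46 ± 0.08 (adjusted p = 0.00251), and WAKMAR2, a long non-coding RNA, by 1.20 ± 0.17 (adjusted p = 0.00121). RASSF6, a scaffold of the Hippo pathway, stood at 0.07, -0.11 and 0.01 in the DMSO arrays and 1.22, 1.28 and 1.34 in the SAHM1 arrays, a difference of 1.29 ± 0.08 (adjusted p = 6.49e-06) with 2 of 3 probe sets called. The antiproliferative TOB1 rose by 0.64 ± 0.08 (adjusted p = 0.000367), and the ubiquitin-like ISG15 fell, at -0.62 ± 0.07 (adjusted p = 0.000262). ISG15 was 1 of 2 genes called lower among 26 interferon-stimulated genes (7.69% against 4.38% of all genes). With the 18S covariate RASSF6 kept its call, and TNFAIP3, WAKMAR2, TOB1 and ISG15 lost theirs. Of 19 citric acid cycle genes limma called 0, and of 18 cholesterol genes 1 rose (5.56%, near the 4.96% of all genes). That gene, HMGCS1, was at 0.21 ± 0.06, with an adjusted p of 0.0932 without DMSO replicate 1, 0.141 without DMSO replicate 2, 0.0738 without DMSO replicate 3, 0.0863 without SAHM1 replicate 1, 0.0962 without SAHM1 replicate 2 and 0.164 without SAHM1 replicate 3. The unadjusted p was below 0.05 in 4344 of all genes. Markers of B cells, myeloid cells, erythroid cells, and fibroblasts or epithelium gave 0 calls among 7, 7, 6 and 9 genes. For comparison, 9.34% of all genes were called. Of 8 NK-cell markers NKG7, a cytotoxic granule protein, was called, at -0.84 ± 0.12 (adjusted p = 0.0012), or 12.5% of that list.

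The genes called with all arrays and also with the 18S covariate fitted over both lines numbered 50, of which 30 rose and 20 fell. Each kept its direction against DMSO replicate 1 alone. The covariate and that comparison both draw on the gap between DMSO replicate 1 and replicates 2 and 3, so they are not independent. With the covariate fitted to the 6 HPB-ALL arrays only, 13 genes were called in total, so most of the 50 were not called in that fit. With the covariate fitted over both lines the largest rises were JUN at 1.62, ASS1 at 1.49, CHAC1 at 1.31 and VLDLR at 1.28. The eye and neural regulator PAX6 was also among them, at 1.05. The largest falls were MIR210HG at -1.33, AK4 at -1.27, POFUT4 at -1.26, PFKFB3 at -1.21 and DTX1 at -1.20. No linker histone, MALAT1 or ASPM was called there.

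The response of HPB-ALL differed from that of KOPT-K1 in 3323 genes (16.8%) by limma's test of the difference. It lay above KOPT-K1 in 2253 (11.4%) and below in 1070 (5.41%), and the count was 324 with the 18S covariate. Among the ATF4 genes, 22 of 29 lay above KOPT-K1, where the list median was -0.997 against 0.27 in HPB-ALL. CHAC1 changed by -2.65 ± 0.13 in KOPT-K1, a difference of responses of 4.002 ± 0.18 (adjusted p = 6.28e-08). For SLC7A11 that difference was 2.95 ± 0.12 (adjusted p = 3e-08) and for ASS1 3.14 ± 0.18 (adjusted p = 4.4e-07). TXNIP changed by -0.50 ± 0.07 in KOPT-K1, so the difference was 1.80 ± 0.10 (adjusted p = 4.4e-07). JUN was higher in both lines, and more so in HPB-ALL, by 0.89 ± 0.14 (adjusted p = 0.00157), or 0.75 (adjusted p = 0.0968) with the 18S covariate. HES4, at -1.24 ± 0.10 in KOPT-K1, gave a difference of 0.01 ± 0.13 (adjusted p = 0.978), and MYC of 0.05 ± 0.10 (adjusted p = 0.798). DTX1 was lower in HPB-ALL by -0.44 ± 0.13 (adjusted p = 0.0413), but the adjusted p of that difference was 0.0959 without DMSO replicate 2, 0.0803 without DMSO replicate 3, 0.0872 without SAHM1 replicate 2 and 0.0959 without SAHM1 replicate 3. Of the mitotic genes, 17 of 34 lay above KOPT-K1, where that list's median was 0.05.

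**Figure D5:**
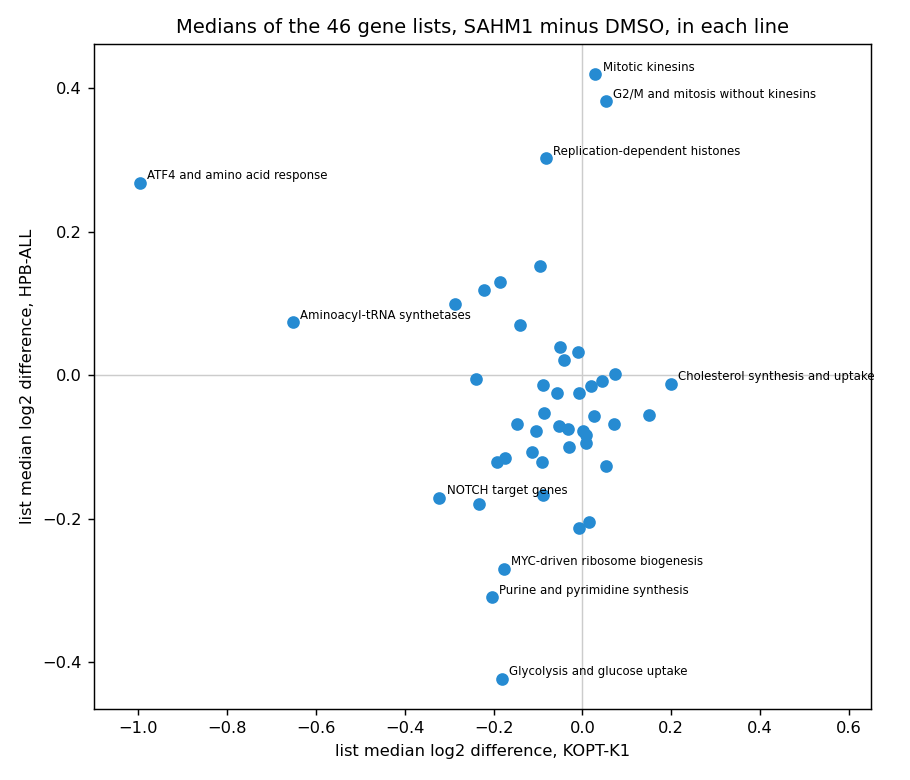
Median log2 difference (SAHM1 minus DMSO) of each of the 46 gene lists in KOPT-K1 (horizontal axis) and HPB-ALL (vertical axis), 1 point per list. The ATF4 list lies near -1 in KOPT-K1 and 0.27 in HPB-ALL, and the NOTCH target list is below 0 in both, at -0.32 and -0.17.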

How the data were processed

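Total RNA of 12 cultures (2 lines, 20 µM SAHM1 or DMSO, 24 hours, 3 each) was hybridised to Affymetrix arrays. The submitters' processing notes name RMA, without a version. The deposited values are linear ratios: in 54675 of 54675 probe sets the HPB-ALL DMSO arrays average 1 within 1e-06, so the authors divided each value by that mean. Ratios ran from 0.0827 to 6.98. Their log2 was taken with no pseudocount. Levels are lost, so no filter on low values was possible.

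Symbols came from the platform annotation: 41091 probe sets carry 1 symbol, 1801 several, and 11721 are unnamed here. The 62 control probe sets were kept apart. Probe sets of 1 symbol were averaged per gene (9252 of 19775 genes have 1 probe set, the most 20). No 2 arrays were identical, and 0 columns of samples were left unused.

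Limma 3.58.1 (R 4.3.3; lmFit, eBayes, two-sided) was fitted to all 12 arrays and 4 groups, adjusted over 19775 genes. The number of arrays limits precision. On simulated data for HPB-ALL, 73.5% of genes changed by 0.5 and 95% of those changed by 1 were recovered, with 14 and 10 of 19575 unchanged genes called. The simulated noise was drawn separately for each gene, with the same spread in all groups. It held no shift shared by the genes of an array, so it cannot measure false calls from such a shift.

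Members, the 46 gene lists (compiled from general knowledge) and tests were chosen with earlier results of these data known. Named genes were the 12 largest rises and falls without overlap, up to 4 called members per list by p (2 where none was called), up to 10 each way with the 18S covariate, the 6 largest differences between lines each way, and 16 fixed genes. Alternatives were the HPB-ALL arrays alone, 18S or spike covariates, median centring, probe-set medians, no _x_at or _s_at probe sets, robust variance, a replicate block, and arrays left out. Promoter windows are RefSeq's (GRCh38.p14).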

Additional observations from a re-analysis of the deposited data

Results flagged for a closer look

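The responses of the 2 lines differed in 3323 genes by limma's interaction test. Values below are log2 responses of HPB-ALL with those of KOPT-K1 subtracted, all past the adjusted threshold. HPB-ALL lay above for CHAC1 (4.002), ANXA3 (3.43), H1-4 (3.39), TM6SF1 (3.16), ASS1 (3.14), SLC7A11 (2.95), TXNIP (1.80), IL7R (1.14) and JUN (0.89). ANXA3, a calcium-dependent membrane-binding protein, and IL7R were not called in HPB-ALL itself, at 0.13 ± 0.17 and 0.06 ± 0.13, and stood at -3.30 ± 0.17 and -1.08 ± 0.13 in KOPT-K1. HPB-ALL lay below for ZNF528 (-2.16), MEFV (-1.45), LINC02504 (-1.41), PLSCR4 (-1.37), LGMN (-1.26), DSPP (-1.18), HEY1 (-0.64) and DTX1 (-0.44). ZNF528, MEFV and LINC02504 were each read from 1 probe set, of the _x_at type that an alternative fit left out. In HPB-ALL, LGMN fell at -1.05 ± 0.17 (adjusted p = 0.00253) and DTX1 at -1.30 ± 0.09 (adjusted p = 1.43e-05), while HEY1, MEFV, LINC02504, PLSCR4 and DSPP were not called. ZNF528 was called, at -0.82 ± 0.21, with an adjusted p of 0.0942 without DMSO replicate 2, 0.107 without SAHM1 replicate 1 and 0.12 without SAHM1 replicate 3. The adjusted p of the DTX1 difference was 0.0959 without DMSO replicate 2, 0.0803 without DMSO replicate 3, 0.0872 without SAHM1 replicate 2 and 0.0959 without SAHM1 replicate 3. With 18S as a covariate ANXA3, ASS1, CHAC1, SLC7A11, TM6SF1, TXNIP, DSPP and ZNF528 kept the call of their difference, and the other genes named here lost it. The difference of H1-4 was then 1.11 (adjusted p = 0.179) and that of JUN 0.75 (adjusted p = 0.0968). Groups of 3 arrays are too small for the search for single outlying arrays.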

How the results depend on the processing

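The count of called genes in HPB-ALL, 1846, ranged from 913 to 2012 when each array was left out in turn. It was 52 with 18S as a covariate (13 in the 6 HPB-ALL arrays), 1030 with the hybridization spike level as a covariate, 1019 without _x_at and _s_at probe sets and 136 without DMSO replicates 2 and 3. The last leaves 1 DMSO array, assumed to vary like the other groups. The count of differences between lines, 3323, was 324 with the 18S covariate, 251 with the spike covariate and 1051 without DMSO replicates 2 and 3. Their causes were not tested. The 18S control difference ranged from 1.64 to 2.99 with 1 array left out and was 2.21 with arrays centred on their median. With the replicate block the count in HPB-ALL was 1261 and that of differences 2616. Deviations of same-numbered arrays from their group means correlated at -0.05, -0.01 and 0.05. These values show no pairing by number, but with 3 arrays in a group they cannot settle whether cultures were paired.

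Of 151 called genes named by the rule, 123 kept their call without each array in turn. Without _x_at and _s_at probe sets 3 reversed: GADD45B to -0.066, KLF2 to 0.090 and TAL1 to 0.069. All 9 list medians of at least 0.2 in size kept their sign in every setting run.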
